A study of Caenorhabditis elegans with 2 samples.

Results

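The X chromosome of Caenorhabditis elegans held 5816 pooled ChIP-seq peaks of GFP-tagged NHR-12 that lay away from tRNA genes, of 29431 pooled relaxed peaks in all. A peak belonged to this set when it was on X and its summit, the position of highest enrichment, was more than 1000 bp from every tRNA 5' end in the Ensembl annotation of WBcel235. X held 6041 pooled peaks, of which 225 were nearer to a tRNA 5' end and were left out, and the autosomes held 23360. Animals of strain OP318 were whole L2 larvae with genotype unc-119(ed3) III and the integrated insertion wgIs318, which carries eGFP-nhr-12. Their sex was given as males and females pooled. The 2 biological replicates form 1 group without a second condition, both carry the tag and the unc-119 allele, and DNA fragments ranged from 150 to 350 bp. The promoter of the insertion is not given in the sources used here, and animals without the tag were not analysed here, so how much of any peak needs NHR-12 was not tested.

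NHR-12 is a member of the nuclear hormone receptor family, transcription factors with a zinc-finger DNA-binding domain that is much expanded in nematodes. ChIP-seq recovers DNA that lay close to the tagged protein and reports enriched intervals as peaks, each with a signal value given by the peak caller. X is the chromosome that differs in copy number between the sexes of C. elegans. In hermaphrodites a dosage compensation complex that includes condensin subunits binds X and lowers its transcription, and it is recruited at sites that carry a short motif found more often on X than on autosomes, with the core GCGCAGGG. X also carries a large share of the tRNA genes of the genome, which RNA polymerase III transcribes.

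Some of the strongest peaks of the set carried this core exactly and others did not. Peaks counted as without the core include some, such as that near ZK899.10, with a copy that has 1 mismatch. Of the 5816 peaks, 33 were in the list that passed the submitters' threshold on the irreproducible discovery rate (IDR), which scores how alike replicates rank peaks, and 11 of these 33 held GCGCAGGG on 1 of the strands within their 320 bp interval. In 3 of the 11 there was a second copy. The 14 copies are printed because they are what these peaks have in common: each is 30 bases in ce11 coordinates, read 5' to 3' on the strand of the core, with the core in capitals, and is named by the gene whose 5' end is nearest the summit. The genome sequence is that of RefSeq for the same assembly.
nspc-17, chrX:14525889-14525918, minus strand: tattgcctatcGCGCAGGGacagatgtggt
F22H10.2, chrX:16682161-16682190, minus strand: aagaaaacatcGCGCAGGGaacatcaaatt
WBGene00014538, chrX:11094114-11094143, minus strand: cgttttatatcGCGCAGGGagcttatgcat
WBGene00014538, chrX:11094215-11094244, minus strand: gggaaccattcGCGCAGGGacacctcactg
F20B6.9, chrX:4209255-4209284, minus strand: ttgccgctatcGCGCAGGGacacctctttc
cest-16, chrX:6296537-6296566, plus strand: atttacatttgGCGCAGGGggtcaccatag
cest-16, chrX:6296565-6296594, plus strand: agataggtatcGCGCAGGGaagatttaccg
21ur-12946, chrX:2997112-2997141, minus strand: ttaaatttatcGCGCAGGGaggaagtagcc
gtr-1, chrX:806663-806692, plus strand: gtgcgattatcGCGCAGGGgtgtttgttgc
gtr-1, chrX:806739-806768, plus strand: taaaccgatacGCGCAGGGaaaaaaaaata
C41A3.6, chrX:5429579-5429608, plus strand: cattaaatttaGCGCAGGGaggacgccgtt
ins-39, chrX:1345045-1345074, plus strand: caatgtcattcGCGCAGGGcagctgagccc
WBGene00014413, chrX:13514547-13514576, plus strand: atacctttatcGCGCAGGGatattgaaatc
T24D8.6, chrX:2364888-2364917, minus strand: aaaataattaaGCGCAGGGatatatagtac

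Bases beside the core recurred as well. ATC stood directly before the core in 8 of the 14 copies, A directly after it in 11, and both in 7. Of the 65 copies on X that were not within 160 bp of any thresholded summit, ATC preceded 3, A followed 21, and both flanked 1. Of 231 such copies on autosomes the counts were 2, 79 and 1. The letters flanking the core were read off these copies after they were collected, so their counts are a description.

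Whole windows show the core in its setting. Given on the plus strand of ce11 are the 200 bases around the strongest peak with the core, upstream of nspc-17. The same is given for the strongest peak of the set, near ZK899.10, which has no exact copy in its interval. In the former, CCCTGCGC in capitals is the core read from the other strand; its GC content was 40%, and that of the latter 35%.
nspc-17, chrX:14525798-14525997: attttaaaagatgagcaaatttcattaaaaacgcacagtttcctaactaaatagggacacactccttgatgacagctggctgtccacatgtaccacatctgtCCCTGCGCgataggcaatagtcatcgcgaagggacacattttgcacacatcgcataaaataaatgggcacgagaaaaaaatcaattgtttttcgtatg
ZK899.10, chrX:9465782-9465981: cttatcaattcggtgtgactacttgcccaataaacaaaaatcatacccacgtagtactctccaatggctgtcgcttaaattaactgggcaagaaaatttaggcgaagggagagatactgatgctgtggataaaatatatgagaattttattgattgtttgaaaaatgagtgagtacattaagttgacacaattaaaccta

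The core lay close to the summits of strong X peaks and was rare elsewhere in the set. Within 50 bp of the summit it was found in 9 of the 33 thresholded peaks (27.3%, exact 95% interval 13.3% to 45.5%), against a background of 0.0510% of the 29401 nuclear pooled peaks. None of the 142 peaks of the set ranked 229 to 1000 in the pooled list had a copy that close, which allows a share of up to 2.11%, and among the 5641 peaks below rank 1000 there were 2. Of the 157 thresholded autosomal peaks, 0 had one within 50 bp, which allows up to 1.91%, and 2 (1.27%) had one within the interval, against 11 (33.3%) in the set. The nearest copy was a median of 16.5 bp from the summit in the 11 peaks, with a range of 4.5 to 80.5 bp, and 10 of the 14 copies were within 35 bp. Intervals of this kind cover counting of peaks only, and all peaks come from the same pair of libraries. No test was made between X and autosomal peaks, since peaks of 1 pooled list are not replicates.

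X also has more copies of the core to begin with. The sequence occurred 81 times on X, or 4.57 copies per Mb, and 233 times on the autosomes, or 2.82 per Mb. Of all windows of 101 bases, 0.0422% on X and 0.0265% on autosomes held it. A thresholded summit was within 160 bp of 16 of the 81 copies on X, counting peaks near tRNA genes, and of 2 of the 233 autosomal copies. Any pooled summit was that near 25 copies on X and 13 on autosomes, so 56 copies on X had none.

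**Figure D1:**
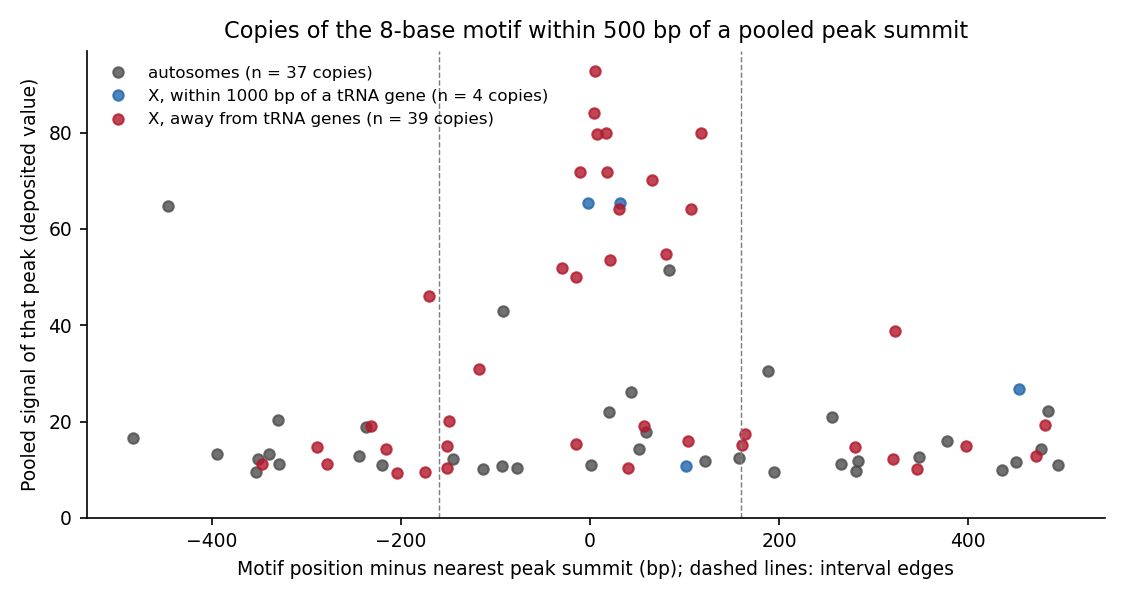
Copies of the 8-base core within 500 bp of a pooled summit, by their position relative to that summit (bp, horizontal axis) and the deposited pooled signal of the peak (vertical axis). Red points are X peaks away from tRNA genes (39 copies), blue points X peaks within 1000 bp of a tRNA 5' end (4 copies), grey points autosomal peaks (37 copies); every copy at a peak above 50 on X lies inside the dashed interval edges, on either side of the summit.

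Sequences close to the core were also seen at strong X peaks. When 1 mismatch was allowed within 50 bp of the summit, 17 of the 33 thresholded peaks of the set matched (51.5%), 8 of them through a mismatched copy alone. The share was 8.28% (13 of 157) in thresholded autosomal peaks, 2.11% (3 of 142) in peaks of the set ranked 229 to 1000 and 3.97% (24 of 605) in autosomal peaks of those ranks. The core was also in the interval of 8 peaks of the set below the IDR threshold, which have lower signal by their place in the list. The strongest was near B0302.2, with 31.0 at rank 404, followed by apm-3, a subunit of an adaptor complex for vesicle traffic, with 20.1. The other 6 had values of 10.4 to 19.1, and 1 of them lies 200 bp from the thresholded summit near the piRNA gene 21ur-12946. Of the 225 X peaks excluded by the rule 2 held the core in their interval, namely a thresholded one with 2 copies, at 65.3 and 350 bp from the 5' end of the tRNA gene WBGene00022939, and another with 10.7.

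The peaks with the core were strong in each replicate list. Signal values are the authors' own and serve here to rank and describe peaks within a list, since the scale differs between lists. At nspc-17, of a family of nematode-specific peptides, the summit 717 bp upstream had a pooled signal of 92.8, with 25.8 in replicate 1 and 64.1 in replicate 2. At F22H10.2 the summit lay 2631 bp downstream of the 5' end, beyond the gene, with 84.0 pooled, 21.9 in replicate 1 and 61.6 in replicate 2. The peaks near the tRNA gene WBGene00014538, 1561 bp away, and near F20B6.9, 1777 bp upstream, had nearly equal pooled values of 79.8 and 79.7. These 4 were among the 7 strongest of the set and ranked between 43 and 73 in either replicate.

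Others differed more between replicates. The summit nearest to cest-16, which encodes a carboxylesterase-like protein, lay in an intron of mom-1, the worm Porcupine needed for Wnt secretion; it had 71.8 pooled, with 10.3 in replicate 1 (rank 589) and 62.0 in replicate 2 (rank 48). The summit near 21ur-12946, in an intron of Y41G9A.17, had 70.2 pooled and went the other way, with 29.0 in replicate 1 (rank 36) and 40.1 in replicate 2 (rank 96). The former thus ranked much lower in replicate 1 than in replicate 2, and the latter was near the top of both lists. Beyond the 3' end of gtr-1, a G protein-coupled receptor gene, the value was 64.0. The peak assigned to C41A3.6 lay in a coding exon of pks-1, a polyketide synthase gene (peak chrX:5429353-5429672), with 54.7 pooled, 16.3 in replicate 1 and 34.2 in replicate 2. Near ins-39, an insulin-like peptide gene, the summit 617 bp upstream had 53.5, and near the tRNA gene WBGene00014413 and T24D8.6 the values were 51.9 and 50.02. All 11 were among the 19 strongest peaks of the set.

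The 22 thresholded peaks without an exact copy of the core ran from the highest to the lowest values. ZK899.10, an ncRNA gene, was nearest to the strongest summit, in intergenic DNA 1836 bp away, with 101.4 pooled, 27.5 in replicate 1 and 72.3 in replicate 2. The next, 254 bp upstream of puf-9, a Pumilio-family RNA-binding protein, lay in an exon of the ncRNA gene W06B11.7 (peak chrX:5841178-5841497), with 99.4 pooled, 30.4 in replicate 1 and 64.2 in replicate 2. Both ranked between 34 and 42 in each replicate list, so the replicates placed them alike. The snoRNA gene T27A8.8, 765 bp from its summit, had 84.5, K02D3.5 75.1, F55G7.5 72.9, the peak 507 bp upstream of epn-1, an epsin-type endocytic adaptor, 71.7, and mir-2221 65.7. From there the peaks without the core dropped to 53.98 at sec-3, an exocyst subunit, which had 7.67 in replicate 1 (rank 1635) and 44.5 in replicate 2 (rank 82). The peak 2892 bp upstream of sma-9, a zinc-finger cofactor of BMP-like signalling, had the opposite order, with 46.9 pooled, 30.8 in replicate 1 (rank 33, the first of the set there) and 18.6 in replicate 2 (rank 1711). The pooled value thus combines replicates that disagree at single sites.

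Of the 17 weaker thresholded peaks, 9 lay within 500 bp of a gene 5' end. A summit 24 bp upstream of hsp-3 (peak chrX:6091988-6092307), which encodes an Hsp70 chaperone of the endoplasmic reticulum, had 38.4 pooled, with 17.2 in replicate 1 and 21.2 in replicate 2. One 41 bp upstream of hst-2 (peak chrX:11207036-11207355), a heparan sulfate sulfotransferase, had 38.2, with 13.0 and 27.8 in that order. At nipi-3, a Tribbles-family pseudokinase of the innate immune response, the summit 301 bp upstream had 39.7, with 6.45 in replicate 1 (rank 3094) and 33.1 in replicate 2 (rank 142). The summit 577 bp upstream of nhr-48, another nuclear hormone receptor, had 37.2, the lowest value in the list, with 9.72 in replicate 1 and 27.01 in replicate 2. Introns of aak-2, a catalytic subunit of AMP-activated kinase, and of kin-20, a casein kinase, held summits of 43.0 and 38.8. The remaining 7 thresholded peaks, from fbxb-58 at 46.7 to R03E9.7 at 39.3, are shown in the plot of the 33 peaks by list.

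**Figure D2:**
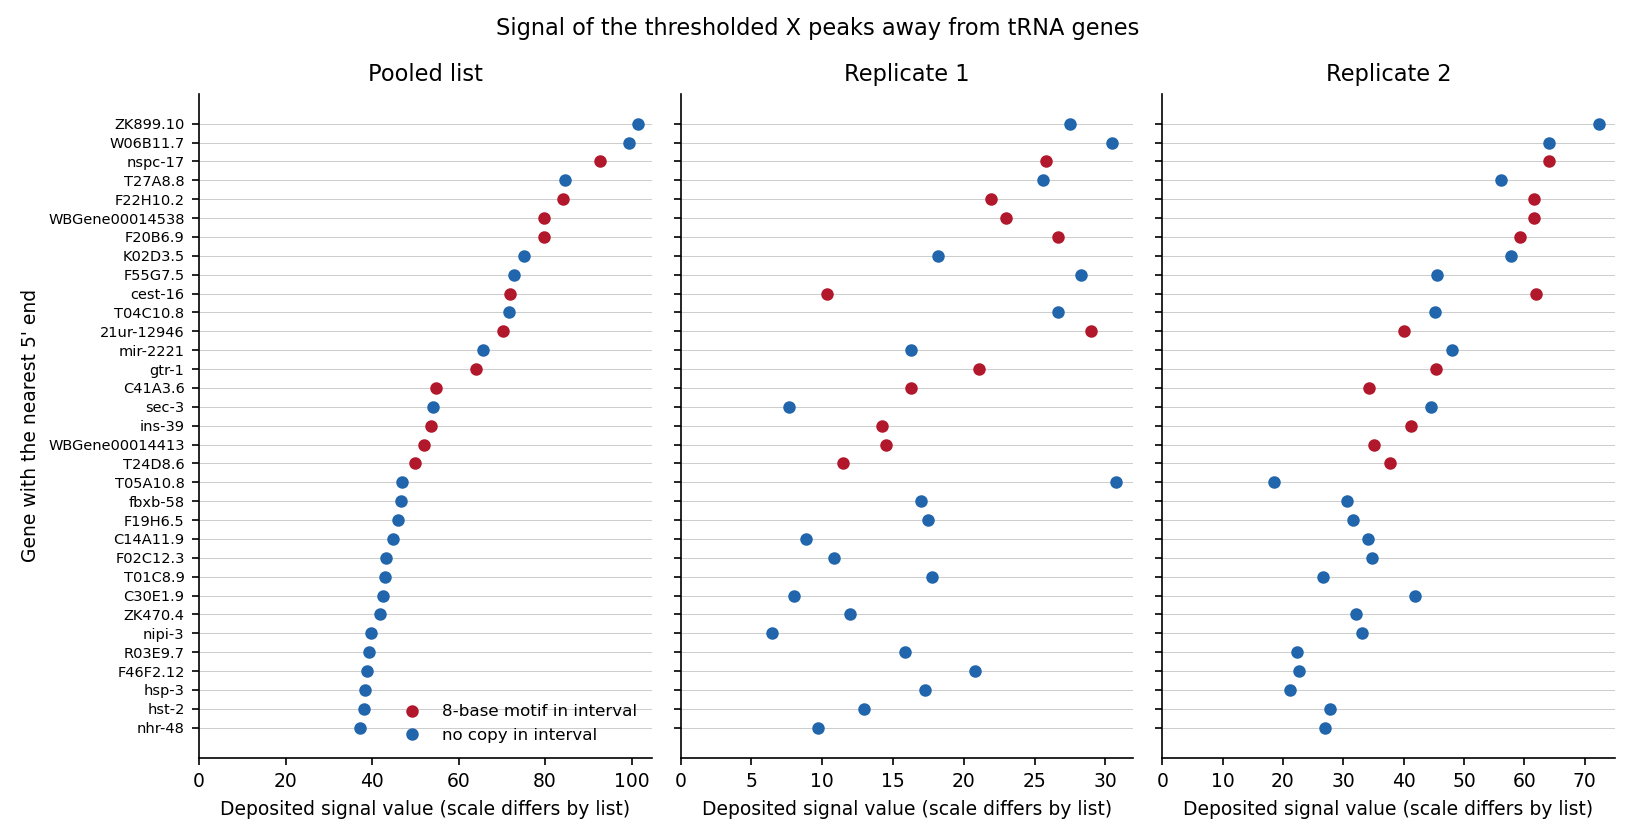
Deposited signal values of the 33 thresholded X peaks away from tRNA genes in the pooled list, replicate 1 and replicate 2 (horizontal axes, scale differs by list), 1 row per peak in order of pooled signal, with the gene of the nearest 5' end on the vertical axis. Red points have the 8-base core in their interval and blue points do not; all 11 red points are among the upper 19 rows, from 50.02 to 92.8 in the pooled list, and the replicate 1 values scatter more against the pooled order than those of replicate 2.

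The thresholded peaks with the core had larger distances to gene 5' ends than most of those without. None of the 11 had a summit within 500 bp of the 5' end of any annotated gene. A count of 0 in 11 allows a share of up to 27.3%, and the share of the whole set was 25.1%. The distances of the 11 ran from 617 to 10046 bp with a median of 1777 bp. Of the 22 without the core 12 were within 500 bp, with a median of 284.5 bp and a range of 12 to 3052 bp. These 22 lack an exact copy only, and those with a copy that has 1 mismatch were not set apart. Strength does not order the groups the same way at every rank: 3 of the 16 strongest thresholded peaks and 9 of the 17 others were within 500 bp, and the core was in 8 and 3 of them. The GC content of the summit windows had a median of 46.5% with the core (32.7% to 54.5%) and 48.0% without (25.7% to 65.3%). The range with the core lay inside the range without it.

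The share of strong peaks near 5' ends was lower in the set than on autosomes. The 2 groups are unlike, since the rule removed peaks near tRNA 5' ends from X only. All 9 thresholded X peaks that it removed were within 500 bp of a 5' end. How much of the difference comes from this was not tested. Within 500 bp of a 5' end lay 12 of 33 thresholded peaks of the set (36.4%, exact 95% interval 20.4% to 54.9%) and 121 of 157 on autosomes (77.1%, 69.7% to 83.4%), against a background of 36.0% of nuclear pooled peaks. Without the 11 peaks that hold the core, the share of the set was 54.5% (12 of 22). The median distance was 908 bp in the set and 219 bp on autosomes. Counting 5' ends of protein-coding genes alone, 7 of 33 (21.2%) and 97 of 157 (61.8%) were within 500 bp. Of the 12 near peaks in the set, the nearest gene was protein-coding in 6 and non-coding in 6. In all, 24 of the 33 summits were upstream of the nearest 5' end, 16 were more than 1000 bp from it and 8 more than 2000 bp.

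**Figure D3:**
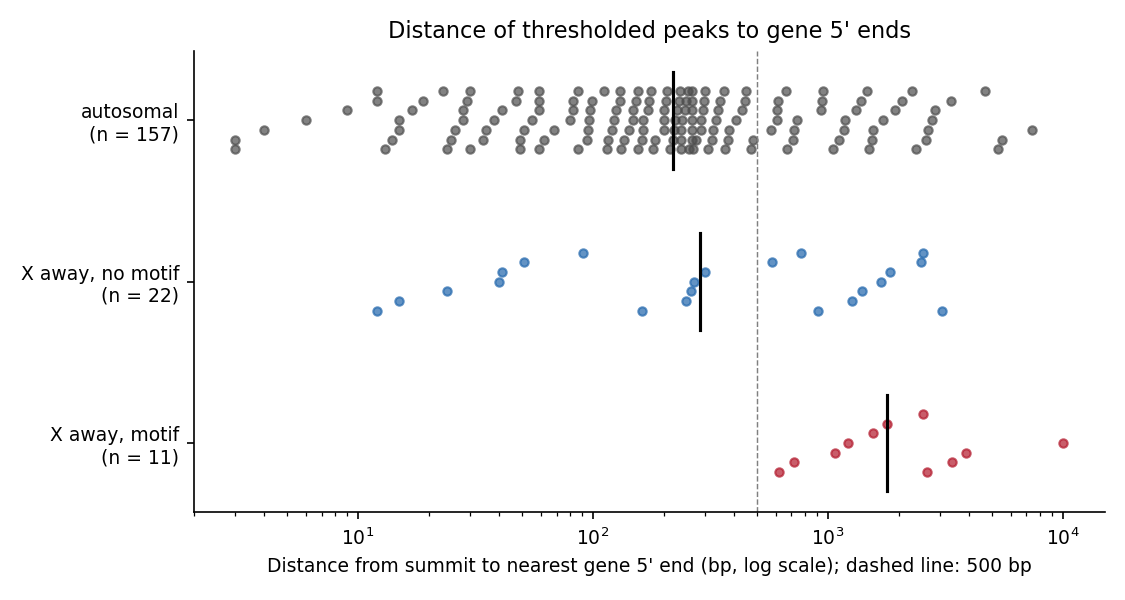
Distance from the summit to the nearest gene 5' end (bp, log scale) for the 157 thresholded autosomal peaks and for the 22 and 11 thresholded X peaks away from tRNA genes without and with the 8-base core in their interval. Points are peaks, bars the medians (219, 284.5 and 1777 bp), the dashed line 500 bp; all 11 peaks with the core lie to its right.

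Most of the thresholded peaks were intergenic, as on autosomes, and 8 of them lay between genes that converge. Of the 33, 24 (72.7%) had an intergenic summit, 5 were in introns, 3 in exons of non-coding genes, 1 in a coding exon and 0 in UTRs, which allows up to 9.09% for either UTR. The intergenic share was 65.6% in thresholded autosomal peaks and 51.8% in the whole set. Among the 24, the flanking protein-coding genes converged on the peak in 8, ran in tandem in 13 and diverged from it in 3. For the 3010 intergenic peaks of the whole set the shares were 6.94% convergent, 55.1% tandem and 37.9% divergent. The tandem count of the thresholded peaks was thus close to the share of the set. A divergent pair places its own 5' ends on both sides of a peak and a convergent pair places neither of its own there. Genes of other types were not counted as flanking genes.

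Over all 5816 peaks the signal was low and like that of the rest of the list. The median was 12.8 (quartiles 10.8 and 15.8, range 9.21 to 101.4), and on autosomes 12.6. The share in the thresholded list was 0.567% (33 of 5816), against a background of 0.775% of all pooled peaks, which include mitochondrial ones, and 0.672% of autosomal peaks. When the whole list was cut into 5 equal bins by signal, the set had 1184, 1208, 1189, 1119 and 1116 peaks from the highest to the lowest, so it was spread nearly evenly. The set made up 19.8% of nuclear pooled peaks, and X is 17.7% of nuclear length. Every one of the 5816 intervals was distinct and 320 bp wide.

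Presence in both replicate lists followed signal. Of the 5816 peaks 1791 (30.8%) overlapped, by at least 1 bp, a peak in each replicate list, against a background of 29.9% of all pooled peaks. Replicate 2 had an overlapping peak for 4678 (80.4%) and replicate 1 for 2484 (42.7%), while 445 had none in either. The replicate lists cover 11.2% (replicate 1) and 10.7% (replicate 2) of X. Because intervals of both lists have width, overlap by at least 1 bp arises by position alone more often than these shares. That share was not computed. The share in both lists was 100% for the 33 thresholded peaks and 71.1% for the 142 ranked 229 to 1000. It was 51.7% for the rest of bin 1, and 38.0%, 28.0%, 17.6% and 13.1% in bins 2 to 5. The autosomal shares were close, at 96.8%, 79.0% and 53.3% for the same first 3 groups and 11.7% in bin 5. High ranks were rarer: 29 of the 33 thresholded peaks, but 11 of the 142 in the next group, overlapped a peak within the 1000 strongest of each replicate. The pooled list is made from the same alignments as the replicate lists, so overlap with them is not an independent repeat.

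Nearness to 5' ends changed little with signal below the strongest X peaks. Within 500 bp of a 5' end lay 1459 of the 5816 (25.1%) and 38.3% of autosomal peaks. The rule removed peaks near tRNA genes from X only, and of the 225 removed 180 (80.0%) were that near. Of all bases, 26.5% on X and 30.9% on autosomes are within 500 bp of a 5' end. By signal, the share of the set was 36.4% and 36.6% down to rank 1000, and between 22.3% and 26.99% below. On autosomes it went from 77.1% through 62.1% and 43.5% to 34.0%. GC content in the set was 46.5% for thresholded peaks, 28.7% for ranks 229 to 1000 and between 26.7% and 28.7% below, under the 35.2% of X as a whole. The median of the thresholded peaks was thus above that of the remainder of the set, as on the autosomes, with the same median of 46.5%. The spreads overlapped in the set. Quartiles were 36.6% and 51.5% for thresholded peaks, and 23.8% and 45.5% for ranks 229 to 1000.

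**Figure D4:**
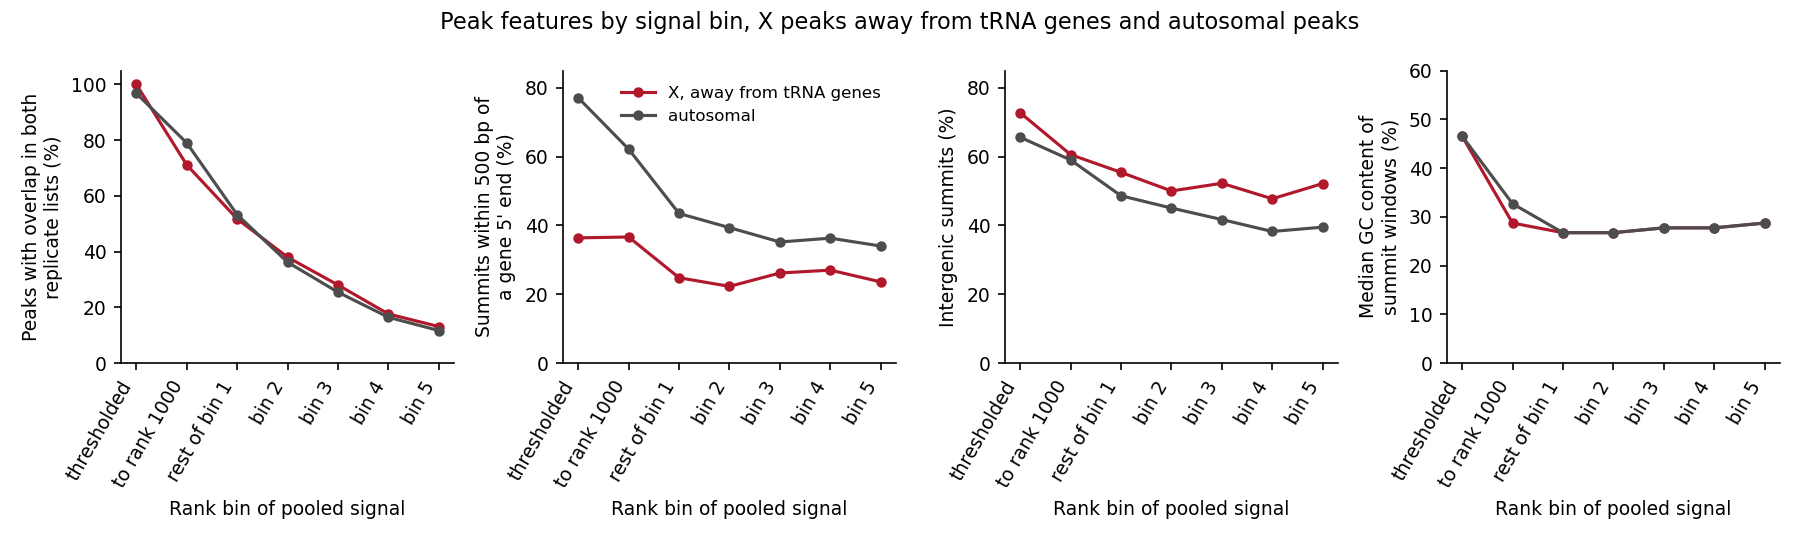
Share of peaks with an overlap in both replicate lists, share within 500 bp of a gene 5' end, share with an intergenic summit and median GC content of the 101-base summit windows (vertical axes, %), by rank bin of pooled signal from the thresholded peaks to bin 5, the lowest of 5 equal bins of the whole list. Red is X away from tRNA genes and grey the autosomes; the replicate curves run together, whereas the share near 5' ends starts at 36.4% on X and 77.1% on autosomes.

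By annotation class, summits of the set were intergenic in 51.8% and intronic in 36.5%. Of X bases, 41.0% are intergenic and 31.0% intronic. Coding exons held 4.40% of summits and make up 20.0% of X bases, and on autosomes they held 8.01% against 25.6%. Of the remaining summits 4.54% were in 3' UTRs, 1.03% in 5' UTRs and 1.82% in exons of non-coding genes or pseudogenes. The gene of the nearest 5' end was protein-coding for 3492 peaks (60.04%) and an ncRNA gene for 1797 (30.9%). It was a tRNA gene for 50, all beyond 1000 bp by the rule.

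Along X the set was spread over the whole chromosome. Cut into 3 equal stretches, the left, the middle and the right of X held 1790, 1999 and 2027 peaks, with 12, 7 and 14 thresholded ones and 6, 2 and 3 with the core. Full bins of 1 Mb held 258 (the first) to 422 (the 14th) with a median of 332, and neighbouring summits were a median of 1897 bp apart. Thresholded peaks were a median of 341 kb apart, from 44.5 kb to 2722 kb, and the widest stretch without one ran from the summit at 6744011 to that at 9465882. The 11 with the core, a subset and so farther apart by number alone, had a median spacing of 1116 kb and a smallest of 538 kb.

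The choice of 1000 bp touched few strong peaks. The members nearest to the limit, at 1003, 1015 and 1018 bp, had signals of 14.7, 10.3 and 9.70, and the excluded peaks at 998, 992 and 975 bp had 15.0, 13.0 and 9.89. Between 1001 and 2000 bp lay 120 peaks, 3 of them thresholded. More than 10000 bp from a tRNA 5' end lay 4875, with 23 thresholded. The 225 excluded X peaks included 9 thresholded ones.

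Other short motifs were searched on both strands within 50 bp of the summit. AGGTCA, the element to which many nuclear receptors bind, was at 1 of the 33 thresholded peaks (3.03%), 1.89% of the set and 2.64% of all X windows of that size. AGTTCA and TGATAA were at 0 of the 33, which allows up to 9.09%, and at 7.29% and 12.2% of the set. GAGAGA was at 18.2% of the thresholded peaks and 21.02% of the autosomal ones, against 4.42% of the set. GACGCA was at 12.1% (4 of 33) and 24.2% (38 of 157) in that order, against 1.58% of the set and 1.74% of all nuclear peaks. CACGTG, an E-box, was at 6.06% and 3.82%, against 1.08% of the set and 1.02% of all nuclear peaks. AAAAAA was at 12.1% of the thresholded peaks and 56.8% of the set, and 40.5% of X windows hold it. No match says only that these letters are not in the window.

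Few genes on X had a strong peak near them. Of the 2731 protein-coding genes on X, 1436 (52.6%) had a peak of the set within 1000 bp of their 5' end, 74 had one ranked up to 1000, and 13 (0.476%) a thresholded one. Of 6 dosage compensation and X signal genes, 4 had a peak, all weak: sdc-1, a zinc-finger protein that acts in recruitment of the complex, 14.8, xol-1, the switch gene of sex determination, 12.3, fox-1, an RNA-binding repressor of xol-1, 11.6, and sex-1, a nuclear receptor that represses xol-1, 11.3. Their ranks in the pooled list ran from 9218 to 19449. Of 23 nuclear hormone receptor genes, 15 had a peak and 3 had one up to rank 1000, nhr-48 (37.2), nhr-35 (32.2) and nhr-281 (26.4).

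For the other lists the comparison is all 6022 genes on X, of which 2910 (48.3%) had a peak of the set within 1000 bp and 144 had one up to rank 1000. Of the 2 ribosomal protein genes, rpl-11.2 had 37.2, the first pooled peak below the threshold, at rank 229, with 16.02 in replicate 1 and 20.3 in replicate 2. The translation elongation factor gene eef-1A.2 had 20.0. All 3 heat shock genes had a peak, led by hsp-3, and hsp-25 had 20.5. Of 33 snoRNA genes 22 had a peak, 4 up to rank 1000, of which T27A8.8, C53B7.8 and W01H2.11 had 84.5, 36.6 and 31.8. Of 74 microRNA genes 40 had a peak and 5 one up to rank 1000. Among these 5, mir-54, mir-55 and mir-56, neighbouring genes of the mir-51 family, and mir-55b share a single peak of 35.8. The 5 genes thus do not stand for 5 separate peaks. Of the 4 heterochronic genes, which time larval development, mir-84 had 21.6, daf-12 12.8 and lin-14 12.1. Peaks were near 10 of 32 neuropeptide genes, 8 of 27 cuticle collagen genes, 8 of 18 ceh homeobox genes, 4 of 6 acetylcholine receptor subunit genes and 4 of 8 fatty acid enzyme genes, none of rank 1000 or better, and near 0 of 5 vitellogenin genes. Of 6 tissue marker genes on X, elt-2 of the intestine (10.5) and dpy-7 of the hypodermis (9.92) had a peak, both weak.

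Each replicate list alone was examined for its strongest peaks, as many as the thresholded list holds. Among the 228 strongest peaks of replicate 1, 43 were on X away from tRNA genes, of which 10 (23.3%) held the core within 160 bp of the summit, against 2 of 151 (1.32%) on autosomes. In replicate 2 these were 11 of 37 (29.7%) and 3 of 156 (1.92%). Within 50 bp of the summit the counts were 5 of 43 (11.6%) in replicate 1 and 8 of 37 (21.6%) in replicate 2, against 0 of 151 and 1 of 156 on autosomes. Both shares were below the 27.3% of the thresholded peaks, and that of replicate 1 by more than 2 times, so the size of this share depends on the list. Within 500 bp of a 5' end lay 18 of 43 (41.9%) and 12 of 37 (32.4%), against 71.5% and 73.7% on autosomes. The lists hold no read counts, so depth cannot be given beside these values.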

How the data were processed

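ChIP-seq with GFP-tagged NHR-12 was made from 2 biological replicates of L2 larvae. Per the labels and the notes deposited with the samples, the authors gave relaxed peak lists per replicate and for the pooled replicates, called against a control, and a pooled list past an IDR threshold. The signal value in these deposited lists is the peak caller's own, never below 0, with a scale that differs between lists. No caller, aligner or IDR threshold is named in the sources used here. Lists on ce11 were used and those on ce10 were not.

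Summits, counted from 1, were set against Ensembl release 115 of WBcel235. The class of a summit followed the order coding exon, 5' UTR, 3' UTR, exon of a non-coding gene or pseudogene, intron and intergenic. Motifs and GC content were read from the RefSeq genome of the same assembly, within 50 bp of the summit. Genes of lists were counted when a peak of the set lay within 1000 bp of their 5' end. Genes named are those of thresholded peaks, of the 25 strongest of the set and up to 4 per list; peaks with the core below the threshold, microRNA, host and neighbouring genes were named after their values were seen. The members and lists were chosen with earlier results of these data known. No p-values were computed. Exact (Clopper-Pearson) 95% intervals cover counting only, and a count of 0 was given a limit of 3 counts. Read depth is unknown. Distances, overlaps and classes were tested on simulated data, and motif counts were not. Python 3.11.15, numpy 2.4.6, pandas 2.3.3 and scipy 1.17.1 were used.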

Additional observations from a re-analysis of the deposited data

How the results depend on the processing

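Of 72 alternatives, 49 left a value within its interval or, for counts, within 1.5 times, and 23 moved it; alternatives on thresholded peaks were chosen after seeing the data. With each replicate list in place of the pooled one, the share within 500 bp of a 5' end was 24.3% to 28.1%, the intergenic share 46.1% to 51.8%, the share in the middle of X 34.8% to 35.7% and median GC content 27.7% to 32.7%. The core was within 50 bp of 27.3% of the thresholded X peaks, and of 11.6% (replicate 1) to 21.6% (replicate 2) of the X peaks among the 228 strongest of each relaxed replicate list, which passed no IDR threshold. The cause was not tested. The share in both replicate lists was 20.5% with 50% of both intervals shared, 15.3% with summits within 100 bp and 2.49% with the 5000 strongest peaks of each. The upper 50% of the thresholded list held 0.327% of the set. Nearness to 5' ends was 11% within 250 bp, 47.3% within 1000 bp, 14.8% for protein-coding genes and 16.1% without ncRNA and piRNA genes. Among thresholded peaks these alternatives gave, in the set and on autosomes, 27.3% and 57.3%, 51.5% and 84.7%, 21.2% and 61.8%, and 21.2% and 65.6%. The share was always lower in the set, and only there were peaks near tRNA genes removed. With protein-coding genes alone 54.04% of summits were intergenic. The upper 10% of the list held 9.83% of the set. Windows of 100 bp each side gave 28.4% GC and raised GAGAGA to 7.96%, AGGTCA to 4.01%, AGTTCA to 14.3%, TGATAA to 22.7%, CACGTG to 2.01%, GACGCA to 3.28% and AAAAAA to 78.4%. No paired analysis was possible because the design has 1 group.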
